A study of Mus musculus with 11 samples.

Results

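The 10 genes described here encode immediate early transcription factors: the orphan nuclear receptors *Nr4a1*, *Nr4a2*, and *Nr4a3*, the AP-1 subunits *Fos*, *Fosb*, *Fosl2*, *Jun*, *Junb*, and *Jund*, and the zinc finger factor *Egr1*. They were chosen by name, by their known response to human chorionic gonadotropin (hCG) in Leydig cells. Earlier results of these data were known when they were chosen. Every array probe whose RefSeq accession belongs to one of them was taken. This gave 12 of the 41174 probes of the array, and 10 of its 17016 named genes. RNA came from MLTC-1 cells, a line of mouse Leydig tumor cells (MLTCs), that were transfected at 20 nM with non-targeting control RNA 4611G (control, n = 4 arrays), with siRNA1 (n = 4), or with siRNA2 (n = 3). Both siRNAs are short RNA duplexes against *Mamld1*, a gene studied for its part in testosterone production, and the comparisons ask how these factors differ when *Mamld1* mRNA is reduced. All 3 groups were the same cell line, handled alike apart from the RNA, with no untransfected cells. Per the labels, RNA was extracted 48 hours after transfection. Per the methods of the study, the cells of all groups had also received hCG 1 hour before harvest, so every array was a stimulated one. No array came from cells without hCG, and the response to hCG itself cannot be measured from these arrays. Nothing in the labels says that the replicates were separate cultures, so p-values measure the spread between these samples, which may be technical.

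hCG acts on the luteinizing hormone receptor of Leydig cells, which raises cyclic AMP and activates protein kinase A. The kinase phosphorylates CREB, which binds cyclic AMP response elements in promoters, and mRNAs of immediate early genes rise within minutes without new protein synthesis and then fall again. FOS proteins pair with JUN proteins to form AP-1, whereas NR4A receptors and EGR1 bind their own sites, and all are described as regulators of steroidogenic genes in Leydig cells.

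Promoters of some of the genes are shown, with the letters of the cyclic AMP response element marked. They were picked with the differences known, and *Nr4a1* is shown although it passed with neither siRNA. Windows from 250 bases before to 50 bases after the start site were taken from RefSeq (GRCm38.p6) and matched 9 of the 10 genes, all but *Egr1*. The 150 bases before the start are printed 5′ to 3′ on the strand of the gene. Capitals mark TGACG, the core of the cyclic AMP response element, on either strand (CGTCA on the other), and in *Jun* the AP-1-like element TGACATCA. The first set holds the genes that were lower with at least 1 siRNA, together with *Nr4a1*, and the second set holds *Fosl2* and *Jun*, which were higher with siRNA1.
Nr4a2 (chr2:57124004-57124153, minus strand): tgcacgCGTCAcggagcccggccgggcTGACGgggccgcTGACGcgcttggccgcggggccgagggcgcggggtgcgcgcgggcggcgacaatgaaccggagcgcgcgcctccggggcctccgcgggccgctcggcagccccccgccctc
Fos (chr12:85473740-85473889, plus strand): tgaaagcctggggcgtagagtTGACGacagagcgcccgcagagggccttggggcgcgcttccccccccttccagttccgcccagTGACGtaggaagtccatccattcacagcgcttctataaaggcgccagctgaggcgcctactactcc
Fosb (chr7:19310046-19310195, minus strand): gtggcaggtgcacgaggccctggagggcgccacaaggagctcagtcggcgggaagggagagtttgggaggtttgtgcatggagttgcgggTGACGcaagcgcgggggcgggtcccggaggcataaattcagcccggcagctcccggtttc
Nr4a1 (chr15:101266696-101266845, plus strand): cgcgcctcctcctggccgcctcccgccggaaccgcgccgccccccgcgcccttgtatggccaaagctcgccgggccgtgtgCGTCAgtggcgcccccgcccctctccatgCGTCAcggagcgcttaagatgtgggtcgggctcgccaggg
Fosl2 (chr5:32136322-32136471, plus strand): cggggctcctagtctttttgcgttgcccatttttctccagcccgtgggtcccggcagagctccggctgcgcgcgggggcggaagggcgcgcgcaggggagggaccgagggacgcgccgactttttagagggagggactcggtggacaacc
Jun (chr4:95052223-95052372, minus strand): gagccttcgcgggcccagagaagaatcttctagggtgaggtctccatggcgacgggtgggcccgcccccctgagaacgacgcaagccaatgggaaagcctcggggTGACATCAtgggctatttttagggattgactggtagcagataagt

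TGACG was present in 6 of the 9 windows, with 4 copies in each of *Nr4a1*, *Nr4a2*, and *Nr4a3*, 2 copies in *Fos*, and 1 copy each in *Fosb* and *Junb*. Those of *Fos* began 129 and 66 bases before the start and the copy in *Fosb* 60 bases before it. These letters were not found in the windows of *Fosl2*, *Jun*, and *Jund*. Of all 32851 windows of this length, 20.8% hold TGACG on either strand. The full palindrome TGACGTCA, which contains TGACG, was in 0 of the 9 windows and in 1.79% of all windows. The AP-1 site TGANTCA was in 0 of 9 and in 7.81%, and the CArG box, the element bound by SRF, was in 0 of 9 and in 1.63%. Elements farther than 250 bases before the start were not searched, and *Egr1* had no window, so these promoters are not shown to lack such sites. The *Jun* element TGACATCA, which overlaps none of the others, began 45 bases before the start and was in 3.62% of all windows. *Junb*, which holds TGACG, and *Jund*, which lacks it, passed with neither siRNA against control. These matches describe the letters only, and a link between them and the differences was not tested.

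The array signals set the limits for these genes. Each array carried 43379 spots other than control spots, of which 58.6% to 62.6% were well above background and 0 were saturated. The 75th percentile of the signal was 470 to 774 per array, and each value here is a log2 signal minus that percentile, or a percentage of the geometric mean in control. A mean of the control arrays can therefore lie slightly above 100%. *Mamld1*, the targeted gene, fell to 54.0% ± 15.4 (SD, n = 4) in siRNA1-transfected MLTCs (limma adjusted p = 0.00571). With siRNA2 it was at 59.8% ± 12.6 (SD, n = 3; limma adjusted p = 0.0309), and control had 101% ± 17.1 (SD, n = 4). Its probe was dim, with mean signals of 28.8 in control, 19.1 with siRNA1, and 17.9 with siRNA2. By real-time PCR, the paper reports a marked reduction of *Mamld1* mRNA with both siRNAs. The arrays lay on 3 slides, each with all 3 groups. Of the cell type markers, 8 of 8 Leydig markers were tested, against 1 of 5 for Sertoli cells (*Amh*), 0 of the 3 on the array for macrophages, 1 of 2 for germ cells (*Ddx4*), and 1 of 2 for endothelium (*Cdh5*). *Sox9*, *Wt1*, *Adgre1*, and *Ptprc* were well above background on no array. The summed Leydig markers were 85.8% to 112% of control on the control arrays, 78.1% to 90.2% with siRNA1, and 92.8% to 112% with siRNA2. The summed endothelial markers were 94.9% to 105% in control, 190.2% to 263% with siRNA1, and 166% to 202% with siRNA2. In the same order, the summed germ cell markers were 83.8% to 115%, 43.5% to 58.2%, and 71.6% to 123%. Their signals were low, and with siRNA1 *Ddx4* was well above background on 1 of 4 arrays. *Dazl*, which was not tested, read 160% ± 51.8 (SD, n = 4) of control with siRNA1 on its brighter probe, in the other direction. The Sertoli sums were 84.7% to 134%, 63.9% to 98.97%, and 87.3% to 119.8%, and the macrophage sums 95.1% to 104%, 74.1% to 111%, and 77.2% to 83.5%. No macrophage gene passed the filter on dim probes, so the macrophage sums are of signals near background. The sums add linear levels, so the brightest genes of a list weigh most. *Cdh5* alone read 190.9% to 265.7% with siRNA1 and 166.3% to 201.6% with siRNA2, close to the endothelial sums. All samples came from 1 cell line, so these sums are levels of marker genes in that line and no measure of cell types. The part of these markers in the results below was not tested.

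Of the 12 probes, 11 passed the filter on dim probes, because some group had them well above background throughout, and they covered 9 genes. *Nr4a3* did not pass. A gene was counted by its brightest probe, and its call required a limma adjusted p no higher than 0.05. With siRNA1, 5 of the 9 genes passed: *Fosl2* and *Jun* were higher, and *Nr4a2*, *Fosb*, and *Egr1* were lower. Over all 11816 tested genes, 10.6% were called higher and 18.7% lower with siRNA1. With siRNA2, 4 of the 9 passed, *Nr4a2*, *Fos*, *Fosb*, and *Egr1*, and these were lower, against 8.02% of all genes called higher and 12.2% lower. With slide as a block, *Fosl2* and *Jun* passed as well, both higher, which made 2 higher and 4 lower with siRNA2. Between the siRNAs, *Fosb* alone passed, lower with siRNA1, against 11.8% of all genes called higher with siRNA1 than with siRNA2 and 14.4% lower. With a fold change of at least 2 required as well, *Nr4a2* was the 1 gene called with siRNA1 (background 3.06%). With siRNA2 (background 2.42%), the 1 call of the fit was again *Nr4a2*. Its probe was not well above background on the siRNA2 arrays, so that its fold is not measured. Between the siRNAs, 0 of the 9 were called (3.53%). *Nr4a2* entered the test only through the control arrays, where it was high, so its calls are given as a description. With probes required to be well above background on all 11 arrays, which leaves *Nr4a2* out, 4, 4, and 1 genes passed in the 3 comparisons, with *Fosl2* among those of siRNA2 (adjusted p = 0.0464). The median log2 difference of the 9 genes was -0.17 with siRNA1 and -0.18 with siRNA2, against -0.08 and -0.02 over all tested genes. The comparisons with control share the same 4 control arrays. Without siRNA2 replicate 2, 2 genes passed with siRNA2, and without siRNA2 replicate 3, 2 genes passed between the siRNAs. With normexp background correction, 1, 0, and 0 genes passed in the 3 comparisons, and with the few extreme local backgrounds of the arrays capped, 5, 4, and 1, with the offset of 50 or without. With siRNA2, these 4 were not the same genes, since *Nr4a2* did not pass and *Fosl2* did.

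**Figure D1:**
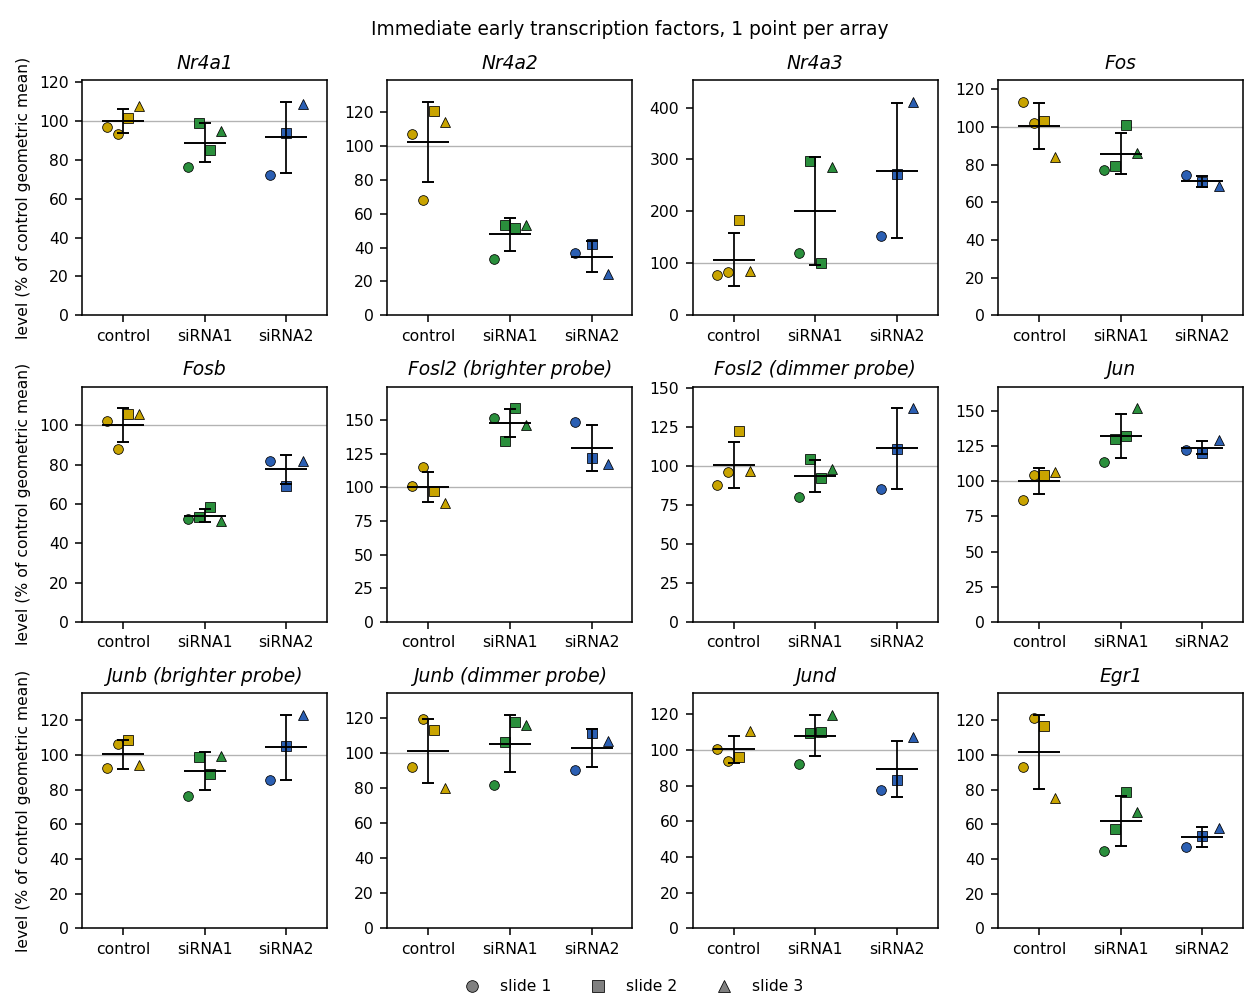
Level of each probe on each of the 11 arrays, as a percentage of the geometric mean in control (vertical axis, linear from 0), by group (horizontal axis). Points are arrays with the slide as symbol, and horizontal bars with whiskers are the mean ± SD. The 4 siRNA1 arrays of *Fosb* lie between 51.3% and 58.7%, below the 3 siRNA2 arrays at 69.0% to 82.1% and the control arrays at 87.8% to 106%, while the points of *Nr4a1* overlap in all groups. *Nr4a3* was not well above background on any array.

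*Nr4a1* encodes NUR77, an orphan nuclear receptor that hormone stimulation of Leydig cells induces and that is described as an activator of steroidogenic genes. Its probe gave a mean signal of 127600 on the control arrays, 142900 with siRNA1, and 123000 with siRNA2, before scaling between arrays. Relative to control, the 4 non-targeted samples read 97.1%, 93.6%, 102%, and 108%. The siRNA1-transfected MLTCs had 76.5%, 99.1%, 85.4%, and 95.1%, and siRNA2 gave 72.5%, 93.8%, and 109%. The 3 groups overlapped, and the lowest array of either siRNA group was the one on slide 1. The log2 difference from control was -0.17 with siRNA1 (95% confidence interval -0.46 to 0.11, limma adjusted p = 0.354) and -0.14 with siRNA2 (-0.45 to 0.16, adjusted p = 0.566). Neither passed, and both intervals include values on either side of 0.

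*Nr4a2* encodes NURR1, which binds the same sites as NUR77. Its level was low, with a mean signal of 14.1 in control, 8.27 with siRNA1, and 5.07 with siRNA2, where the detection limit, the lowest signal so called on an array, was 6.94 to 8.90. It exceeded background clearly on 4 of 4 arrays in control, on 3 of 4 with siRNA1, and on 0 of 3 with siRNA2. The 4 non-targeted samples read 107%, 67.9%, 121%, and 114%. The siRNA1-transfected MLTCs had 33.4%, 53.5%, 51.3%, and 53.4%, and siRNA2 gave 36.7%, 42.3%, and 24.5%. All siRNA arrays lay below the lowest control array, and siRNA1 replicate 1 lay below the other siRNA1 arrays. With siRNA1, *Nr4a2* differed from control by -1.09 on the log2 scale (standard error 0.23, limma adjusted p = 0.00517). With siRNA2, each array read below its lowest signal well above background. Set to that signal, *Nr4a2* was 1.83-fold below the control mean, which is approximate and no strict bound. *Nr4a3*, for example, read 9.16 on siRNA2 replicate 3 without being well above background. The fit gave *Nr4a2* a limma adjusted p of 0.00131 with siRNA2. The probe was tested because all control arrays had it well above background, a condition that favors a high control group, so these p-values do not support a fall on their own. No size is given for the difference between the siRNAs, as the siRNA2 arrays were not well above background. With normexp background correction *Nr4a2* changed sign, to 0.73 with siRNA1 (adjusted p = 0.470) and 0.44 with siRNA2 (adjusted p = 0.756). With the extreme local backgrounds capped and the offset of 50 kept, the siRNA2 difference was -0.21 (adjusted p = 0.129).

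*Nr4a3* encodes NOR1, the remaining receptor of the family. Its probe was well above background on 0 of 11 arrays, with listed signals of 1.78 to 4.85 in control, 3.37 to 8.13 with siRNA1, and 3.99 to 9.16 with siRNA2, against negative control spots with a median of 1.61 to 2.04 per array. No fold is given for it. Without the filter on dim probes, its difference did not pass with either siRNA (limma adjusted p = 0.231 and 0.148).

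*Fos* encodes the founding AP-1 subunit and was measured on 10 spots of every array, with a median coefficient of variation between the spots of 4.46%. The 4 non-targeted samples read 113%, 102%, 103%, and 83.9%. The siRNA1-transfected MLTCs had 77.0%, 79.4%, 101%, and 86.2%, and siRNA2 gave 74.4%, 70.6%, and 68.7%. All siRNA2 arrays lay below all control and all siRNA1 arrays, whereas the siRNA1 arrays overlapped the control arrays. With siRNA2, *Fos* fell by 0.49 on the log2 scale, to 71.2% ± 2.94 (SD, n = 3) of control (standard error 0.12, limma adjusted p = 0.0165, with 0.0571 by exact permutation). With siRNA1, the difference was -0.23 (95% confidence interval -0.48 to 0.02, adjusted p = 0.162). The difference between the siRNAs, 0.26 (-0.01 to 0.53, adjusted p = 0.1504), did not pass, so *Fos* is not shown to respond to siRNA2 in a way that differs from siRNA1. The spread between arrays of a group, 12.2% in control and 12.5% with siRNA1, exceeded that between spots of an array. The siRNA2 call was lost without siRNA2 replicate 2 (-0.48, adjusted p = 0.0578) and without siRNA2 replicate 3 (-0.46, adjusted p = 0.0562). Within the 3 slides, the siRNA2 difference was -0.53, -0.55, and -0.29.

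*Fosb* encodes a FOS family subunit that pairs with JUN proteins, and it showed the smallest adjusted p of the 9 genes with siRNA1. The 4 non-targeted samples read 102%, 87.8%, 106%, and 106%. Transfection with siRNA1 gave 52.5%, 53.2%, 58.7%, and 51.3%, and siRNA2 gave 82.1%, 69.0%, and 81.6%. The 3 groups did not overlap, with siRNA1 lowest and siRNA2 between siRNA1 and control. After siRNA1, *Fosb* fell by 0.89 on the log2 scale (standard error 0.09, limma adjusted p = 5.59e-05, with 0.0286 by exact permutation). After siRNA2 it fell by 0.37 (standard error 0.10, adjusted p = 0.0260, with 0.0571 by exact permutation). The siRNAs differed from each other by -0.52 (standard error 0.10, adjusted p = 0.00329, with 0.0286 by exact permutation). Within the slides, the siRNA1 difference was -0.85, -0.92, and -1.04, and the siRNA2 difference was -0.21, -0.61, and -0.37. The siRNA2 call was close to the threshold: it was lost without control replicate 1 (adjusted p = 0.0603), 3 (0.0674), or 4 (0.0649) and without siRNA2 replicate 2 (-0.29, adjusted p = 0.124). It was also lost with scaling by the median (adjusted p = 0.0823), with no filter on dim probes (0.0642), and in separate fits of each pair of groups (0.0622).

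*Fosl2* encodes FRA2, a FOS family member, and was measured by 2 probes that differed. On the brighter probe, the 4 non-targeted samples read 101%, 115%, 97.3%, and 88.3%. Transfection with siRNA1 gave 152%, 134%, 159%, and 147%, and siRNA2 gave 149%, 122%, and 118%. All arrays of either siRNA lay above all control arrays. *Fosl2* rose by 0.56 with siRNA1 on this probe (standard error 0.11, limma adjusted p = 0.00295, with 0.0286 by exact permutation). With siRNA2, the difference of 0.37 (95% confidence interval 0.11 to 0.62) narrowly missed the threshold (adjusted p = 0.0513), and it passed with slide as a block (0.40, adjusted p = 0.0131) and without control replicate 2 (0.43, adjusted p = 0.0282). The dimmer probe gave -0.10 with siRNA1 (-0.44 to 0.24, adjusted p = 0.673) and 0.13 with siRNA2 (-0.24 to 0.49, adjusted p = 0.685). Its control arrays ran from 88.0% to 122%, its siRNA1 arrays from 80.4% to 104%, and its siRNA2 arrays from 85.6% to 137%, so that all groups overlapped. The rise with siRNA1 thus rests on 1 of 2 probes, and the mean of both probes gave 0.23.

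*Jun* encodes the main partner of FOS proteins in AP-1 and, like *Fos*, lay on 10 spots per array (median coefficient of variation 4.53%). The 4 non-targeted samples read 86.4%, 104%, 105%, and 106%. Transfection with siRNA1 gave 114%, 130.1%, 132%, and 152%, and siRNA2 gave 122%, 120.3%, and 129%. Every siRNA array lay above every control array, and control replicate 1 lay below the other controls. *Jun* rose by 0.39 with siRNA1 (standard error 0.10, limma adjusted p = 0.0157). With siRNA2, the difference of 0.31 (95% confidence interval 0.06 to 0.55) did not pass (adjusted p = 0.0813). The exact permutation p was 0.0286 for either siRNA. With slide as a block, the siRNA2 difference was 0.28 (adjusted p = 0.0491), and within the slides it was 0.36, 0.20, and 0.28. The siRNAs differed by 0.09 (95% confidence interval -0.16 to 0.33, adjusted p = 0.636).

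*Junb* and *Jund* encode the other JUN proteins, of which JUND is the one found in many resting cells. On the brighter *Junb* probe, control arrays ranged between 92.5% and 109%, siRNA1 arrays between 76.1% and 99.2%, and siRNA2 arrays between 85.3% and 123%, so the groups overlapped. Its log2 differences from control were -0.15 with siRNA1 (95% confidence interval -0.43 to 0.13, limma adjusted p = 0.434) and 0.05 with siRNA2 (-0.26 to 0.35, adjusted p = 0.878), and the dimmer probe gave 0.06 and 0.04. *Jund* ranged between 93.7% and 111% in control, 92.2% and 119.7% after siRNA1, and 77.7% and 107% after siRNA2, again with overlap. Its differences were 0.10 (-0.16 to 0.36, adjusted p = 0.567) and -0.18 (-0.46 to 0.11, adjusted p = 0.410), which did not pass. Between the siRNAs, *Jund* was 0.28 apart (interval from just below 0 to 0.56, adjusted p = 0.144). This difference passed with slide as a block (0.29, adjusted p = 0.0250), with quantile normalization (0.33, adjusted p = 0.0427), and without siRNA2 replicate 3 (0.42, adjusted p = 0.0378).

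*Egr1* encodes a zinc finger factor that is an early target of MAP kinase and SRF signaling. The 4 non-targeted samples read 93.2%, 122%, 117%, and 75.4%. Transfection with siRNA1 gave 44.6%, 57.6%, 78.7%, and 67.3%, and siRNA2 gave 47.0%, 53.2%, and 58.0%. The siRNA2 arrays lay below all control arrays, whereas siRNA1 replicate 3 lay above the lowest control array, replicate 4. After siRNA1, *Egr1* fell by 0.72 on the log2 scale (standard error 0.19, limma adjusted p = 0.0168). After siRNA2 it fell by 0.93 (standard error 0.21, adjusted p = 0.00931), and the exact permutation p was 0.0571 in both comparisons. The siRNAs differed by 0.21 (95% confidence interval -0.25 to 0.66, adjusted p = 0.513). The size of the fall varied by slide. It was -1.25, -0.80, and -0.16 with siRNA1 on slides 1, 2, and 3, and -1.18, -1.14, and -0.38 with siRNA2, and slide 3 held 1 array of each group, among them the lowest control array.

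**Figure D2:**
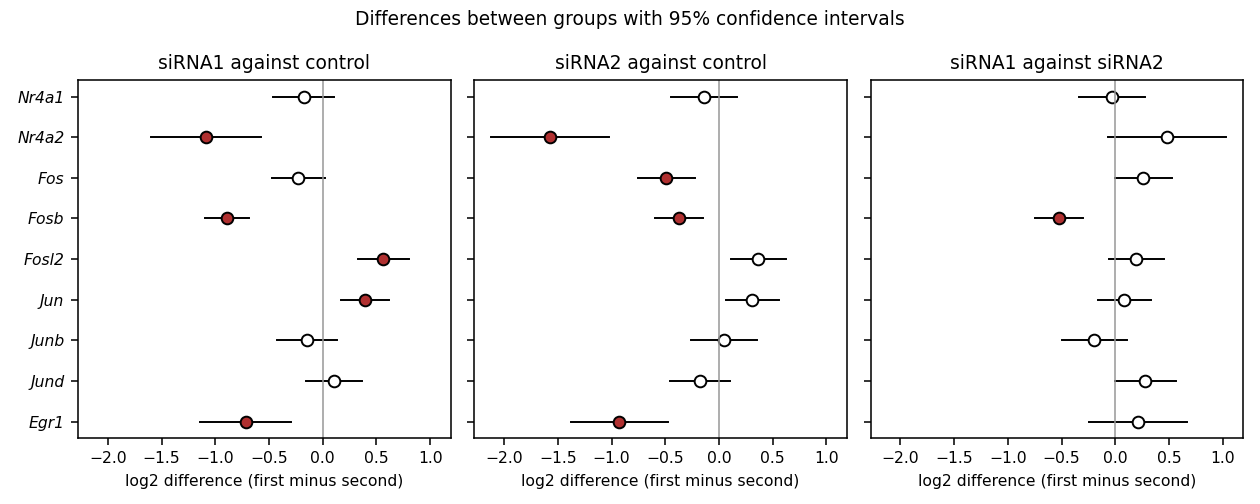
Log2 differences of the 9 tested genes by their brightest probe (points) with 95% confidence intervals from limma (lines), for siRNA1 against control, siRNA2 against control, and siRNA1 against siRNA2. Filled points passed an adjusted p of 0.05. *Nr4a2*, *Fosb*, and *Egr1* are filled and left of 0 in both comparisons with control, *Fos* with siRNA2, and *Fosl2* and *Jun* are filled and right of 0 with siRNA1. The *Nr4a2* probe was not well above background on the siRNA2 arrays, so its points in the comparisons with siRNA2 are no measured sizes.

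In a fit with slide as a block, 5 genes passed with siRNA1, 6 with siRNA2, and 2 between the siRNAs. The additional calls were *Fosl2* and *Jun* with siRNA2, and *Jund* between the siRNAs. *Nr4a2* was lower on each slide with siRNA1 (-1.35, -1.21, and -1.10), *Fosl2* was higher on each with siRNA1 (0.49, 0.59, and 0.73) and with siRNA2 (0.47, 0.33, and 0.42), and *Jun* was higher on each with siRNA1 (0.27, 0.33, and 0.52). Not every difference kept its sign across slides: *Fos* with siRNA1 was at -0.483, -0.202, and 0.038, and *Junb* with siRNA2 at -0.215, -0.047, and 0.385. These are differences between 1 or 2 arrays of a group on a slide, with no test.

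How the genes varied together was described by Pearson's r of the deviations from the group means over the 11 arrays, which share slides. Of the 36 pairs of the 9 genes, 22 had a positive r, and the median was 0.15. *Nr4a1* varied with *Jund* (r = 0.86) and *Junb* (r = 0.83), whereas *Nr4a1* and *Fosl2* varied in opposite directions (r = -0.82). *Fos* and *Egr1* had r = 0.66, and *Fos* and *Jun* had r = -0.14. Among the genes that were lower with siRNA2, *Nr4a2* and *Fosb* had r = 0.24, and *Fosb* and *Egr1* had r = -0.08. Among 11815 other genes, those most like *Fos* were *H1f3* (r = 0.97), *Nabp1*, *Zfand5*, *Zfp189*, and *Braf*, those most like *Egr1* were *Pex14* (r = 0.94), *Midn*, *Ier5*, *Ndel1*, and *Tox4*, and those most like *Nr4a1* were *Adck1* (r = 0.99), *Ninj1*, *Fbxw4*, *Ccdc159*, and *Slc16a3*. These were picked as the highest of 11815 values over 11 arrays, where high values also arise by selection, and no chance level was computed.

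**Figure D3:**
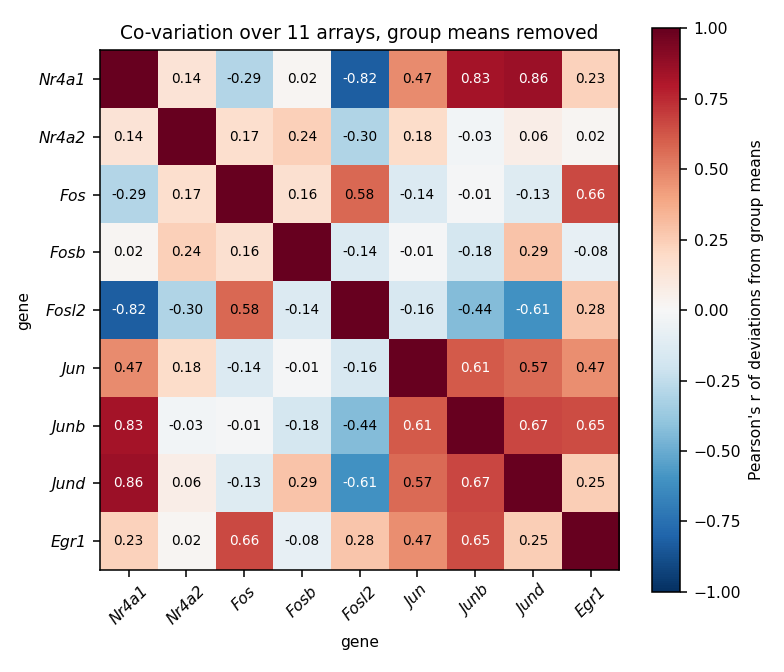
Pearson's r between each pair of the 9 tested genes over 11 arrays, computed on deviations from the group means (color from -1, blue, to 1, red, with the value in each cell). *Nr4a1*, *Junb*, and *Jund* form a red block with r from 0.67 to 0.86, and *Fosl2* is blue against them.

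Other genes of the same response were counted by their brightest probe. Of 28 other immediate early factors and AP-1 or CREB family members, 25 were tested; with siRNA1, 2 rose and 8 fell, and with siRNA2, 4 rose and 5 fell. Their median log2 difference was -0.17 with siRNA1 and -0.04 with siRNA2, against -0.08 and -0.02 over all genes. Calls here and in the next lists stand beside 10.6% of all genes higher and 18.7% lower with siRNA1, and 8.02% higher and 12.2% lower with siRNA2. *Klf6*, a zinc finger factor, rose with both (0.93, limma adjusted p = 1.82e-05, and 0.76, adjusted p = 0.000200) on its brighter probe, whereas its dimmer probe gave 0.22 (adjusted p = 0.453) and 0.18 (adjusted p = 0.663). *Egr2*, a relative of *Egr1*, fell by 0.81 (adjusted p = 0.00339) and by 0.61 (adjusted p = 0.0304), and *Ier5* fell by 0.68 (adjusted p = 0.00152) and by 0.52 (adjusted p = 0.0142). *Jdp2*, a JUN dimerization partner that represses AP-1, fell by 0.72 with siRNA1 (adjusted p = 0.00115) and rose by 0.46 with siRNA2 (adjusted p = 0.0282), with a difference between the siRNAs of -1.17 (adjusted p = 8.03e-05). *Batf3*, another AP-1 family member, fell by 0.86 with siRNA1 (adjusted p = 0.000374) and was at 0.15 with siRNA2 (adjusted p = 0.492).

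Of 24 immediate early genes whose products are not DNA-binding factors, 15 were tested; 3 rose and 6 fell with siRNA1, and 3 rose and 3 fell with siRNA2. *Gadd45b*, a stress-inducible gene, fell by 1.08 (limma adjusted p = 4.95e-05) and by 0.52 (adjusted p = 0.0114) on its brighter probe, and its dimmer probe gave -1.08 and -0.55. *Rgs2*, a regulator of G protein signaling, fell by 0.66 (adjusted p = 0.00351) and by 1.12 (adjusted p = 0.000306). *Dusp1*, a phosphatase of MAP kinases, rose by 0.46 with siRNA1 (adjusted p = 0.00711) and by 0.53 with siRNA2 (adjusted p = 0.00724). *Nr0b1*, which encodes DAX1, a nuclear receptor without the usual DNA-binding domain, rose by 1.00 with siRNA1 (adjusted p = 3.23e-05) and was at 0.25 with siRNA2 (adjusted p = 0.135).

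Upstream of the factors, 41 genes of the hCG, protein kinase A, CREB, MAP kinase, and SRF pathways were listed and 37 tested; 9 rose and 6 fell with siRNA1, and 4 rose and 3 fell with siRNA2. *Lhcgr*, the receptor for hCG, was at 65.4% ± 10.5 (SD, n = 4) of control with siRNA1 (a fall of 0.63, limma adjusted p = 0.00285) and at 112% ± 13.9 (SD, n = 3) with siRNA2 (adjusted p = 0.471). The siRNAs differed in *Lhcgr* by -0.79 (adjusted p = 0.00121). *Prkar1b*, a regulatory subunit of protein kinase A, fell by 1.27 (adjusted p = 0.000101) and by 0.58 (adjusted p = 0.0244), and *Atf1*, a CREB relative, rose by 0.39 (adjusted p = 0.0147) and by 0.77 (adjusted p = 0.000636). Downstream, 16 of 17 Leydig cell genes with described NR4A, AP-1, or EGR regulation were tested; 0 rose and 3 fell with siRNA1, and 1 rose and 3 fell with siRNA2. The share that fell with siRNA1 was near the 18.7% of all genes. *Cyp17a1*, whose enzyme makes the androgen precursors, fell by 0.92 (adjusted p = 0.000216) and by 0.48 (adjusted p = 0.0237), and *Fdx1*, the electron donor of mitochondrial P450 enzymes, fell by 0.38 (adjusted p = 0.00878) and by 0.49 (adjusted p = 0.00465) on the brightest of 3 probes. The other probes did not pass with siRNA1 (adjusted p = 0.0512 and 0.707), and 1 of them passed with siRNA2 (adjusted p = 0.0189). *Star*, the cholesterol transport gene and a described NR4A target, was looked up after its values were known and was at 0.06 with siRNA1 and 0.16 with siRNA2, neither of which passed. *Akr1c18*, a progesterone-metabolizing enzyme gene, fell by 1.08 with siRNA2 (adjusted p = 6.99e-05) and was at -0.06 with siRNA1 (adjusted p = 0.697). Between the siRNAs, higher and lower with siRNA1, the counts were 2 and 5 of the other factors, 3 and 3 of the remaining immediate early genes, 2 and 6 of the upstream genes, and 1 and 5 of the Leydig cell genes, beside 11.8% and 14.4% of all genes. With slide as a block, these became 4 and 6, 4 and 4, 6 and 9, and 1 and 5. Against control, the slide block changed the counts by over 1.5 times for the Leydig cell genes (6 lower with siRNA1, and 2 higher and 5 lower with siRNA2) and for siRNA2 in the remaining immediate early genes (5 higher and 5 lower) and the upstream genes (6 higher and 5 lower).

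**Figure D4:**
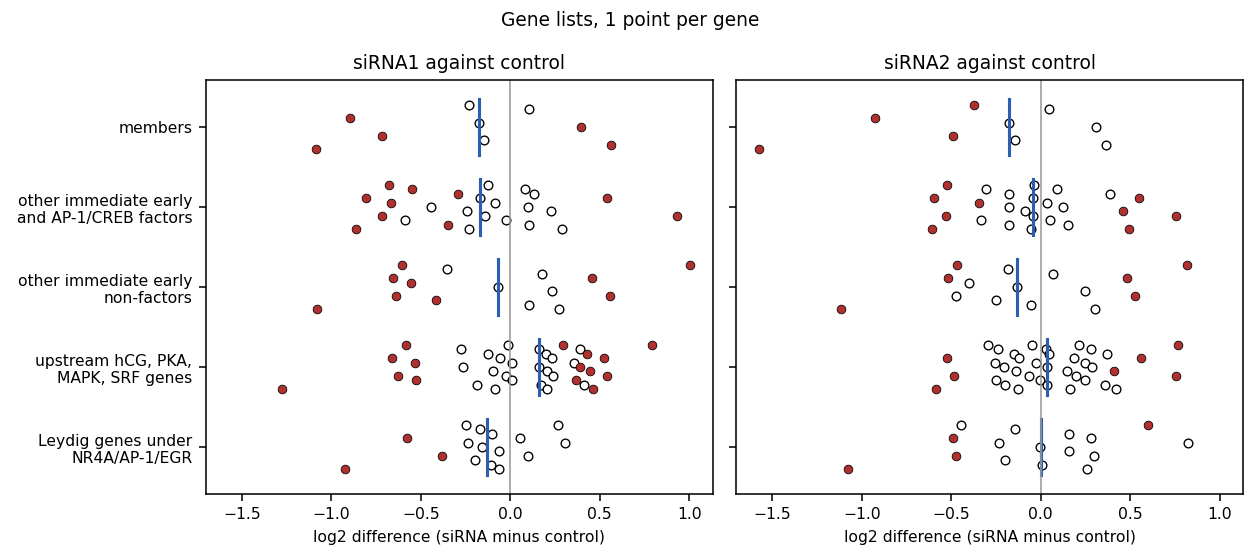
Log2 differences from control (horizontal axis) of the tested genes of each list (vertical axis, spread for visibility), 1 point per gene by its brightest probe, for siRNA1 and siRNA2. Filled points passed an adjusted p of 0.05, and blue lines are list medians. The medians lie between -0.18 and 0.16. Filled points lie on both sides of 0 in most rows. The top row holds the 9 tested factors described here, whose 4 filled points with siRNA2 are left of 0.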

How the data were processed

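RNA from 11 samples of MLTCs was labeled with Cyanine-3 and hybridized by the authors to 1-color whole mouse genome arrays, 1 sample per array. The deposited signal intensities came, per the file headers, from Feature Extraction 9.5.1.1, which subtracted background and did not normalize between arrays. The table of group averages made by the authors was not used, and columns of other samples numbered 0.

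After dropping control spots, each log2 intensity was set against the 75th percentile of its array. Outlier spots were then dropped, and replicate spots of a probe were averaged. Probes were named by RefSeq accession (24375 of 41174), with GRCm38.p6 symbols. The array's own annotation uses an older build, and promoter coordinates come from the RefSeq table. limma (version 3.58.1, R version 4.3.3) fitted the 24248 probes that at least 1 group had well above background throughout, over all 11 arrays with no covariate, with Benjamini-Hochberg adjustment over all probes of a comparison. A gene passed at an adjusted p of 0.05 or less by its brightest probe. Two-sided exact permutation tests of the difference in mean log2 signal are given for single genes, and their smallest p is 0.0286. The number of arrays limits the precision.

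The named genes are the 10 factors, *Mamld1*, the 5 genes most like each of 3 factors, and genes picked from the other lists. Those were picked from the up to 6 passing genes per list and comparison with the smallest adjusted p. Not all of these are named, and some left out had a smaller adjusted p than some named. *Star* was added after its values were seen. The 10 genes and all lists were chosen with earlier results of these data known. Alternatives were normexp (offset 50) on the median spot signals and local backgrounds, quantile and median scaling, other filters, outliers kept, slide or replicate number as a block, separate fits, the unpaired t-test of the methods, eBayes with trend and robust options, a fold threshold, the mean over probes, and leaving out each array. Normexp with local backgrounds capped at the 99th percentile was chosen after seeing the data.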

Additional observations from a re-analysis of the deposited data

Results flagged for a closer look

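In *Nr4a2*, siRNA1 replicate 1 stood apart from the other siRNA1 arrays. It was at 33.4% of control and not well above background, and its gap to the nearest array was 0.913 of the range of the group, above Dixon's critical value for 4 samples. In *Jun*, control replicate 1 stood apart from the other control arrays in the same way, at 86.4% with a gap of 0.898 of the range. These were 2 of the 18 groups of 4 arrays examined, and chance gives about 1 in 20. *Nr4a2* and *Jun* still passed with siRNA1 without these arrays. In that fit, too, the *Nr4a2* probe was kept only through the control arrays, so its call is a description.

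*Fosb* differed between the siRNAs, by -0.52 on the log2 scale (limma adjusted p = 0.00329), with all 4 siRNA1 arrays below all 3 siRNA2 arrays.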

How the results depend on the processing

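The number of genes that passed was 5 with siRNA1, 4 with siRNA2, and 1 between the siRNAs. With normexp background correction (offset 50) it was 1, 0, and 0. With the methods' t-test and adjustment it was 3 with siRNA1 and 1 with siRNA2, and with a fold change of 2 required it was 1, 1, and 0. The calls under the fold rule were *Nr4a2*, which the counts of 5 and 4 also include. It entered the test only through the control arrays and was not well above background with siRNA2, so these calls are a description. Between the siRNAs it was 2 with quantile normalization and 2 with slide as a block. Leaving out single arrays gave 5 to 5 genes with siRNA1, 2 to 5 with siRNA2, and 1 to 2 between the siRNAs. With the replicate number as a block (the replicate block), 5, 5, and 1 genes passed. Deviations of arrays with the same number correlated at -0.18 to 0.53 across probes (median 0.30, against -0.10 for different numbers), so not every pair passed 0.1 and the numbers were not taken to pair the samples. On the same slide the median was 0.30, and on different slides -0.13.

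Apart from differences within single slides, given last, signs reversed in the following values, of which those of *Nr4a2* against control had passed. With normexp, *Nr4a2* was 0.73 with siRNA1 and 0.44 with siRNA2, *Jund* -0.23 with siRNA1, and *Junb* -0.19 with siRNA2. Between the siRNAs, *Nr4a1* was 0.039 with quantile normalization, 0.008 with scaling by the median, 0.039 without siRNA1 replicate 1, and 0.10 without siRNA2 replicate 3, *Fosl2* was -0.016 for the mean over probes, and *Nr4a2* was -0.19 and -0.10 with capped local backgrounds, with and without the offset. With siRNA2, leaving out single arrays moved *Nr4a1* between -0.278 and 0.016 (above 0 without siRNA2 replicate 1) and *Junb* between -0.079 and 0.184 (below 0 without siRNA2 replicate 3). Within single slides, signs also reversed in differences that had not passed. With siRNA1 these were *Fos* 0.038 and *Junb* 0.077 on slide 3 and *Jund* -0.071 on slide 1. With siRNA2 they were *Junb* -0.215 and -0.047 on slides 1 and 2 and *Nr4a1* 0.013 on slide 3. Between the siRNAs, on slide 1, they were *Egr1* -0.074, *Jun* -0.099, *Nr4a1* 0.076, and *Nr4a2* -0.136.

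The highest local background was 28290, 45940, and 19940 on siRNA1 replicates 2 and 4 and siRNA2 replicate 2, and 2781 on control replicate 2, against 99th percentiles of 46 to 51 on all arrays. With values above that percentile capped, with or without the offset, 5, 4, and 1 genes passed. Normexp moved the median over all probes to 0.22, 0.17, and 0.11 in the 3 comparisons, and no filter moved it to -0.13 with siRNA1 and -0.11 between the siRNAs. The cause of the other shifts was not tested. Signals near background limit *Nr4a2* and *Nr4a3*.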
